A study of Homo sapiens with 7 samples.

Results

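Loops joining 2 distal anchors, called distal-distal loops here, were examined in H3K27ac HiChIP of 3 human cancer cell lines. HiChIP ligates DNA ends that lie together in the nucleus and then enriches the ligated fragments with an antibody, here against histone H3 acetylated at lysine 27, so that each loop is a pair of genome regions (anchors) joined by sequenced read pairs. A loop was counted as distal-distal when neither anchor overlapped a 500 bp window centred on a start site of any protein-coding or lncRNA gene. This rule took 154515 of 354783 loops, of which 95494 were in Ishikawa (endometrial adenocarcinoma), 8007 in T-47D (ductal breast carcinoma) and 51014 in LNCaP (prostate carcinoma). All other loops, with a start site in 1 or both anchors, are called promoter loops.

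The 7 samples were 4 Ishikawa cultures, of which 2 received DMSO and 2 received 10 nM 17beta-estradiol (E2) for 1 h, 1 T-47D sample and 2 LNCaP samples with no treatment named in the labels. The samples of each line had been combined into 1 list, so no value has a replicate error, DMSO and E2 could not be compared, and intervals are 95% intervals that cover counting error only. Lists held 1040329 (Ishikawa), 351260 (T-47D) and 1805322 (LNCaP) read pairs in loops, with at least 3 per loop. Ishikawa chromatin was cut with DpnII and that of both other lines with MboI, which recognise the same GATC site, and sonication, read length and sequencing depth followed the same split. In comparisons with Ishikawa, line and protocol therefore cannot be told apart.

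H3K27ac marks active enhancers and promoters. Enhancers of one locus often lie together in the nucleus with each other as well as with the promoter they act on, which gives contacts without any start site at either end. Contacts between distant sites also arise where the cohesin complex extrudes DNA until it meets the factor CTCF bound to motifs that face each other (convergent motifs). In breast and endometrial cancer cells many distal regulatory regions are bound by the estrogen receptor, and in prostate cancer cells by the androgen receptor, in each case together with forkhead factors such as FOXA1.

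Sequences of 3 distal-distal loops are given to show what a convergent pair of CTCF-type motifs looks like at both ends of such a loop. In each line it is the strongest of the distal-distal loops considered that had exactly 1 match to CCANNAGNNGGCA (N for any base) in each anchor and the matches facing each other. All are plus-strand sequences of 100 bases from GRCh37, and capitals mark the match, which reads as its reverse complement in the right anchor. The Ishikawa pair lay in INPP5A, a gene for an inositol phosphate phosphatase, and was joined by 71 read pairs over 13.1 kb. The T-47D pair joined PIEZO1, the gene of a mechanosensitive ion channel, to CBFA2T3, a transcriptional corepressor gene, by 24 read pairs over 152 kb. The LNCaP pair lay within NAALADL2 and was joined by 509 read pairs over 30.8 kb.
Ishikawa, left anchor, chr10:134431329-134431428: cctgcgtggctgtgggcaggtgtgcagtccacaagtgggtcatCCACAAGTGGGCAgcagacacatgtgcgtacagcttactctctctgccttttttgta
Ishikawa, right anchor, chr10:134437517-134437616: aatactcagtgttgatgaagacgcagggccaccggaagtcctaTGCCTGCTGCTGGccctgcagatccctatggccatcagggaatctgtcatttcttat
T-47D, left anchor, chr16:88839644-88839743: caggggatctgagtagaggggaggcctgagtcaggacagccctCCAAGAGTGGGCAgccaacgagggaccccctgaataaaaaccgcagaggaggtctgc
T-47D, right anchor, chr16:88987101-88987200: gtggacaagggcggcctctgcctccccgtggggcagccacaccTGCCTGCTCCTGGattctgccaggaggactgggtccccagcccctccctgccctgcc
LNCaP, left anchor, chr3:174661086-174661185: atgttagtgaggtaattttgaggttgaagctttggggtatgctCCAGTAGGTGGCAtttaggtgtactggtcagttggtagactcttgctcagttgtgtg
LNCaP, right anchor, chr3:174697851-174697950: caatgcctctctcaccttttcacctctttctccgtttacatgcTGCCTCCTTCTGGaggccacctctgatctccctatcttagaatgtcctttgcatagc

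Of the distal-distal loops considered, the strongest with a palindromic estrogen receptor motif (GGTCANNNTGACC) in an anchor is shown for Ishikawa and T-47D. For LNCaP the strongest with an androgen receptor motif (GNACANNNTGTNC) is shown. These are the steroid receptors known to bind distal regions in the respective tissues. Some loops were left out of this choice and of that of the CTCF-type pairs. Except for the LNCaP receptor loop, stronger loops with such motifs are therefore not excluded. Capitals again mark the match. The Ishikawa loop, on chromosome 12, was intergenic at this anchor and had 51 read pairs. The T-47D motif lay in ZMIZ1, the gene of a transcriptional coactivator, in a loop of 90 read pairs. The LNCaP motif lay in the intergenic anchor of the strongest distal-distal loop of that line, with 1894 read pairs.
Ishikawa, estrogen receptor motif, chr12:834419-834518: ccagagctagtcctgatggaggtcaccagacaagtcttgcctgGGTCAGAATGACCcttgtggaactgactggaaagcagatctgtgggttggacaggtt
T-47D, estrogen receptor motif, chr10:80888478-80888577: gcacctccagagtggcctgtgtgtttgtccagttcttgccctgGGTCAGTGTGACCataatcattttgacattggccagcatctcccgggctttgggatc
LNCaP, androgen receptor motif, chr6:110844219-110844318: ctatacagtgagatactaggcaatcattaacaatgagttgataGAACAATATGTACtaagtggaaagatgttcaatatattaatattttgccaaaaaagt

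Distal-distal loops were the most frequent class in Ishikawa and the least frequent in T-47D. They made up 58.4% of the Ishikawa loops (95% Wilson interval 58.2 to 58.6%), 34.2% of the LNCaP loops (33.9 to 34.4%) and 19.1% of the T-47D loops (18.7 to 19.4%). Loops with a start site in both anchors followed the opposite order, at 9.19, 23.8 and 42.3%. In read pairs the distal-distal share was 54.4% in Ishikawa, 30.6% in LNCaP and 21.6% in T-47D. The order of the lines followed that of their anchors, since 74.6% of all loop ends in Ishikawa, 55.2% in LNCaP and 38.4% in T-47D lay at distal anchors. Set against the product of these end shares, distal-distal loops were 1.05 times as frequent in Ishikawa, 1.12 times in LNCaP and 1.29 times in T-47D. The product takes ends over the whole genome, while loops are local and the share of distal ends differs between regions. The ratio can also rise higher where distal ends are rarer. It therefore does not measure a preference of distal ends for each other, and its order over the lines was not tested. That ratio stayed between 1.03 and 1.05 in Ishikawa, between 1.09 and 1.15 in LNCaP and between 1.23 and 1.34 in T-47D for spans under 50 kb, of 50 to 200 kb and of 200 kb or more.

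The anchors of these loops numbered 68840 in Ishikawa, 24633 in LNCaP and 5745 in T-47D, and had median widths of 5.07, 3.04 and 2.42 kb. Their centres lay a median of 23.6 kb (Ishikawa), 17.4 kb (LNCaP) and 14.7 kb (T-47D) from the nearest start site, and only 5.50, 3.46 and 2.98% held a start site of another gene type, such as a pseudogene or a small RNA. In Ishikawa 53.1% of the anchors lay outside protein-coding genes, 29.7% in introns only and 17.2% touched an exon. LNCaP anchors were intronic more often, with 40.9% in introns and 42.1% intergenic, and T-47D lay between, with 36.7 and 50.3%. The median anchor had 2 distal partners in every line. Promoter anchors were wider than these anchors, with medians of 5.47 kb (Ishikawa), 3.96 kb (LNCaP) and 2.83 kb (T-47D).

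Distal-distal loops were shorter than promoter loops in all 3 lists. Their median span, taken between anchor centres, was 32.9 kb (interval 32.6 to 33.2 kb) in Ishikawa, where promoter loops had 43.8 kb. The T-47D medians were 67.5 kb (64.9 to 70.7 kb) and 89.9 kb, and those of LNCaP 95.8 kb (94.3 to 97.5 kb) and 122 kb. The shares of distal-distal loops were accordingly highest at short distance. From 5 to 9.10 kb they were 66.2% of Ishikawa, 47.2% of LNCaP and 28.3% of T-47D loops, and they declined to 51.6% and 16.0% at 100 to 182 kb in Ishikawa and T-47D and to 29.8% at 182 to 331 kb in LNCaP. The T-47D share was lower still, 13.7%, in the last bin, from 1099 kb on, with 73 loops. At 603 to 1099 kb the Ishikawa share was 58.4%, with 913 loops.

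Contact strength depended on distance in a way that differed between the lines. Over 10 distance bins from 5 kb to 2 Mb, with each bin weighted by its distal-distal loops, mean read pairs per distal-distal loop were 0.803 times those of promoter loops in Ishikawa (interval 0.795 to 0.811), 0.777 times in LNCaP (0.755 to 0.7997) and 1.06 times in T-47D (1.02 to 1.10). Promoter anchors were wider than distal ones in each list, and the part of anchor width in these ratios was not tested. Distal-distal loops were the weaker class at short range everywhere. In LNCaP the ratio was 0.646 at 5 to 9.10 kb and 1.26 at 331 to 603 kb, and in T-47D it was 0.826 and 1.34 in the same bins. In Ishikawa the values in these bins were 0.897 and 0.894, with a low of 0.756 at 30.2 to 54.9 kb between them and 1.06 in the last bin. Within each of the 4 parts of the Ishikawa list, described further on, the ratio over all bins was 0.870 to 0.931, closer to 1 than in the summed list and outside its interval.

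**Figure D1:**
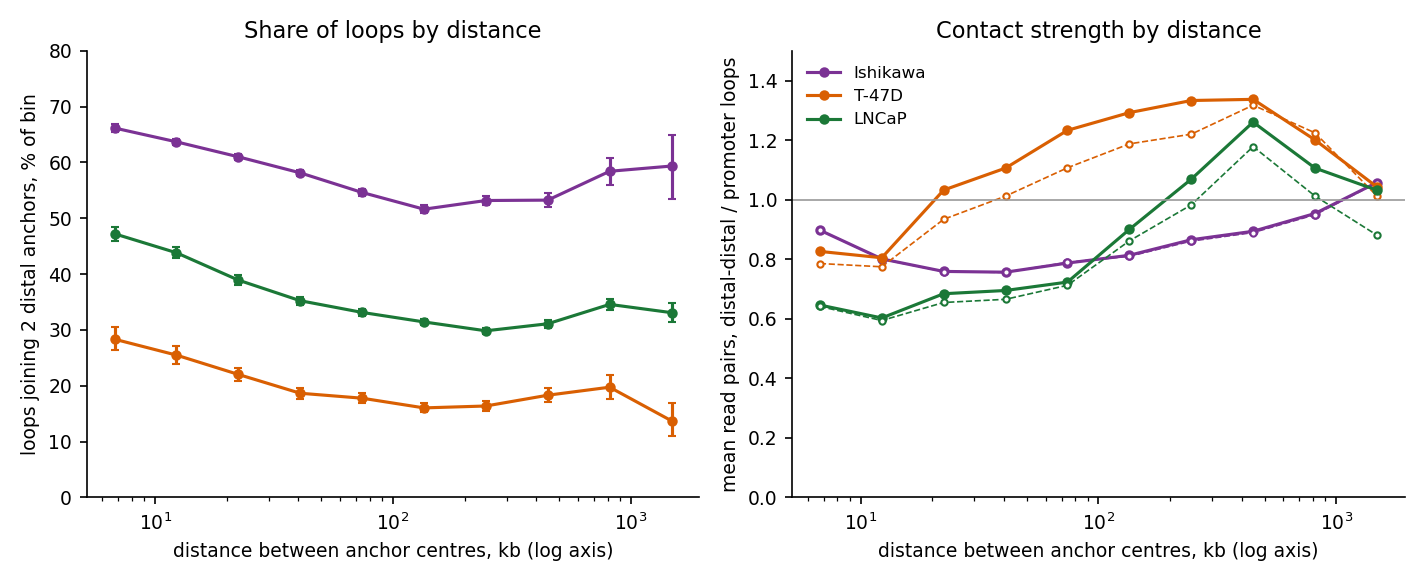
The left panel plots the percent of all loops in each of 10 distance bins (log axis, kb) that join 2 distal anchors, with 95% Wilson intervals, for each list. The right panel plots mean read pairs per distal-distal loop divided by the mean per promoter loop in the same bins, with dashed lines for the lists without the 3 groups of most joined anchors. T-47D passes 1 from the bin at 16.6 kb on and LNCaP from 182 kb on, while Ishikawa lies at or under 0.953 up to 1099 kb.

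Shares of strong loops gave the same order in some of the long-range bins only. At 331 to 603 kb, 13.2% of T-47D distal-distal loops (interval 10.8 to 16.1%) had 10 or more read pairs, against 4.54% of promoter loops, and in LNCaP the shares were 16.4% (15.5 to 17.5%) and 11.7%. At 5 to 9.10 kb the order was the opposite, with 52.9 and 65.5% in T-47D and 50.5 and 67.8% in LNCaP. A few loci contributed to the means: without the loops in the 3 groups of most joined anchors, described further on, the T-47D ratio over all bins was 0.974 and no longer above 1, but at 331 to 603 kb it was still 1.32, and that of LNCaP 1.18. In LNCaP at 182 to 331 kb, where the ratio of means was 1.07, the shares with 10 or more read pairs were 16.7 and 17.4%, and without the groups the ratio was 0.982. Beyond 1099 kb it was 0.881 without the groups in LNCaP, and in T-47D the shares were 4.11 and 5.88%.

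Most distal-distal loops of T-47D and LNCaP formed a closed triangle with a promoter. Both of their anchors were joined by other loops to the same promoter anchor in 70.0% of T-47D loops (interval 69.0 to 71.0%) and 73.9% of LNCaP loops (73.5 to 74.2%), whereas in Ishikawa this held for 25.6% (25.3 to 25.9%). Loops whose anchors were not joined to any promoter anchor made up 37.9% of the Ishikawa list, 6.85% of LNCaP and 7.64% of T-47D. Anchor by anchor, 38.1% of the Ishikawa, 72.2% of the T-47D and 72.4% of the LNCaP anchors of distal-distal loops had at least 1 promoter partner. Depth moved these shares: with read pairs thinned to the T-47D total, triangles made up 46.6% of the LNCaP and 12.1% of the Ishikawa distal-distal loops. The lists also differ in how many loop ends lie at promoter anchors. Distal anchors held 38.4% of the ends in T-47D, 55.2% in LNCaP and 74.6% in Ishikawa, and the part of this was not tested. Triangles were not counted for promoter loops, so they are not shown to be particular to distal-distal loops.

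**Figure D2:**
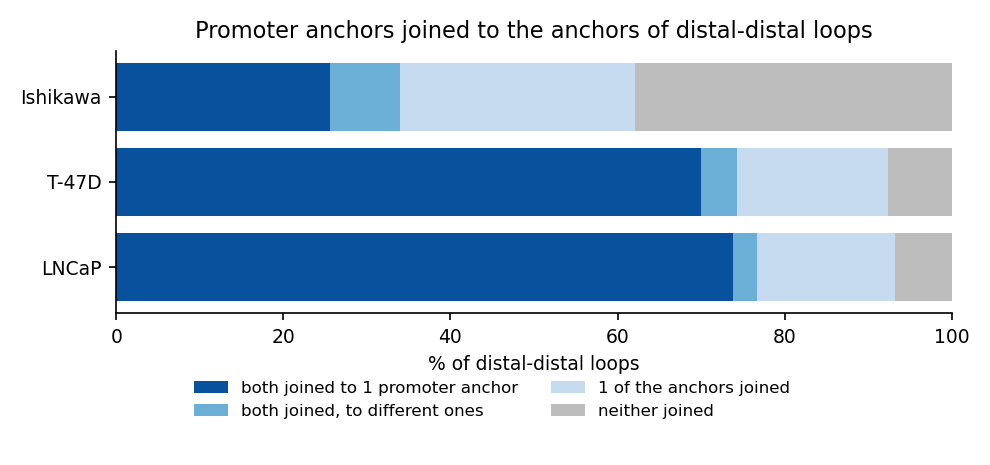
Bars show the percent of the distal-distal loops of each list whose anchors were both joined to the same promoter anchor, both joined but to different ones, joined at 1 end only, or not joined to any promoter anchor. The first class takes 70.0% in T-47D and 73.9% in LNCaP but 25.6% in Ishikawa, where 37.9% had no promoter partner at either end.

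Loops in a triangle with a promoter carried more read pairs than loops without a promoter partner. In LNCaP the means were 12.5 and 6.08 read pairs, in T-47D 10.98 and 6.49, and in Ishikawa 7.63 and 5.19. The same order held within each span class of each list. In T-47D, for example, the means were 14.97 against 7.42 below 50 kb and 6.99 against 4.49 at 200 kb or more. Loops were listed only from 3 read pairs on. Anchors with more read pairs can therefore have both stronger loops and more listed promoter partners. Read pairs per loop and triangle status are thus not independent, and the part of coverage in this order was not tested. Triangles made only of distal anchors were also frequent: both anchors shared a further distal partner in 81.5% of LNCaP, 69.0% of T-47D and 56.2% of Ishikawa distal-distal loops.

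Over all spans, about equal shares of the distal-distal loops lay inside a single protein-coding gene in Ishikawa and LNCaP. Both anchors overlapped the same gene in 32.4% of the loops of either list (intervals 32.1 to 32.7% and 32.0 to 32.8%) and in 26.2% in T-47D (25.2 to 27.1%). The share among promoter loops was 34.8% in Ishikawa, 21.7% in LNCaP and 16.8% in T-47D. Both anchors were intergenic in 44.3% of Ishikawa, 43.0% of T-47D and 30.6% of LNCaP distal-distal loops, against 10.9, 3.66 and 4.20% of promoter loops, a difference in which the rule itself takes part because promoter anchors overlap genes. A protein-coding start site lay between the anchors in 32.1% (Ishikawa), 46.4% (T-47D) and 52.5% (LNCaP) of distal-distal loops. At 200 kb or more the shares were alike, at 75.9, 73.1 and 73.9%.

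The genes whose bodies held most of these loops differed from line to line. In LNCaP, NAALADL2 (chr3:174156363-175528336), a peptidase-like gene, held 562 distal-distal loops with 19437 read pairs, which is 3519 of every 100000 distal-distal read pairs of the list. It held 192 loops (219 per 100000) in Ishikawa and 14 (80.3 per 100000) in T-47D. FBXL17, which encodes an F-box protein of a ubiquitin ligase, and CNBD1 followed in LNCaP with 196 loops each; in T-47D both genes held none. In T-47D the leading gene was GSE1 (chr16:85203131-85709810), which encodes a coiled-coil protein, with 4566 read pairs in distal-distal loops, or 6011 per 100000, against 49.8 in Ishikawa and 104 in LNCaP. AFF3, a gene of the AF4 family of elongation factors, held 72 loops in T-47D and RAD51B, a DNA repair gene, 68. Genes holding at least 1 such loop numbered 5321 in Ishikawa, 2810 in LNCaP and 689 in T-47D, in lists of 95494, 51014 and 8007 distal-distal loops. The leading Ishikawa genes were CSMD1 with 250 loops (254 per 100000), DLGAP2 with 226 (270 per 100000) and NAALADL2. These counts were not scaled to gene length, which was 2060 kb for CSMD1, 1372 kb for NAALADL2, 969 kb for DLGAP2 and 507 kb for GSE1. NAALADL2 also lies in a segment dense in Ishikawa loops of all classes, described further on.

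The strongest distal-distal loops had more read pairs in LNCaP than in the other lists, but lists differ in depth. Per 100000 distal-distal read pairs the strongest loop had 639.8 in T-47D, 343 in LNCaP and 75.6 in Ishikawa, and all 5 leaders of T-47D, at 366 or more, were above that of LNCaP. This scale is not one of depth alone. Distal-distal loops held 21.6% of loop read pairs in T-47D, 30.6% in LNCaP and 54.4% in Ishikawa, and a smaller share raises the value. How the T-47D leaders stand to that of LNCaP therefore depends on this choice. The LNCaP leader joined chr6:110843902-110860207, 54.2 kb from the SLC22A16 start site, to chr6:110962749-111006117 in CDK19, a kinase gene of the Mediator complex, with 1894 read pairs over 132 kb, and was in neither other list. A loop within MYO6, the gene of a myosin motor, had 1246 read pairs, an intergenic loop on chromosome 10, 452 kb or more from MBL2, had 1032, one on chromosome 2 near CWC22 had 1000, and another within CDK19 had 988. Both anchors of each of these 5 loops were joined to the same promoter anchor.
The T-47D leaders were 4 loops inside GSE1 with 486, 396, 317 and 288 read pairs, all with the anchor chr16:85491053-85508912 at 1 end, and a loop in DSCAM, a cell adhesion gene, with 278. None of the 5 was in the Ishikawa list, and 3 were in LNCaP with 5 to 15 read pairs.
In Ishikawa, 4 of the 5 leaders lay beside stretches of 100 kb or more of unknown bases in GRCh37: 1 on chromosome 10 with 428 read pairs, 4.88 kb from such a gap, and 3 on chromosome 16 with 372, 190 and 188 read pairs, 13.8 to 29.1 kb from one. The fifth joined a SMIM41 anchor to an intergenic anchor 37.5 kb from KRT80, a keratin gene, with 146 read pairs. Loops within 500 kb of such gaps were 1.42% of the Ishikawa, 1.07% of the T-47D and 1.26% of the LNCaP distal-distal loops. The part of these gaps in the read pairs was not tested.

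Some anchors had many distal partners. In LNCaP, 3 NAALADL2 anchors had 99, 90 and 88 distal partners over reaches of 3446 to 3629 kb, and 6 or 7 promoter partners each. The T-47D maximum was 41 partners at the GSE1 anchor chr16:85491053-85508912, which also had 23 promoter partners, followed by an intergenic anchor at chr1:215643690-215652013 and an anchor 25.9 kb from the TRPS1 start site with 31 each. The Ishikawa maximum was 36, at chr12:46704873-46729415, 39.2 kb from SLC38A2, an amino acid transporter gene, and at chr3:176664846-176680438, 71.6 kb from TBL1XR1, a corepressor gene.

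Linking all anchors that shared a distal-distal loop of 10 or more read pairs gave connected groups, whose size depended on the depth of the list. Groups of 10 or more anchors held 37.4% of the anchors so linked in LNCaP, 18.2% in T-47D and 9.91% in Ishikawa, while 69.1% of the Ishikawa groups, 55.6% of those of T-47D and 45.3% of those of LNCaP were single pairs of anchors. After thinning to the T-47D total the share in such groups was 19.7% in LNCaP, where the largest group had 38 anchors, and Ishikawa had no group over 9 anchors. The thinned lists had fewer read pairs than T-47D, so these values are not at equal depth with its 18.2%. Before thinning, the largest group had 122 anchors and 577 loops in LNCaP over 4427 kb of chromosome 3 (chr3:173618514-178045708), a region with the genes NLGN1, NAALADL2, TBL1XR1 and KCNMB2. The next were 79 anchors around LUZP2 on chromosome 11 and 48 around ZNF385B, CWC22 and UBE2E3 on chromosome 2. In T-47D the largest groups had 30 anchors around GSE1, 25 around TRPS1 and 22 in a region with KCNK2, a potassium channel gene. Those of Ishikawa had 38 anchors on chromosome 10 around DLG5, POLR3A and RPS24, 37 within the reach of DLGAP2 and 35 around the transporter genes SLC38A1, SLC38A2 and SLC38A4, none with a loop over 46 read pairs.

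Over all spans, distal-distal loops were shared between lists less often than promoter loops. A loop counted as found in another list when both its anchors overlapped, by 1 bp or more, both anchors of a loop there. Of the T-47D distal-distal loops 14.2% (interval 13.5 to 15.01%) were found in LNCaP, against 38.9% of all T-47D loops and 44.7% of its promoter loops. In Ishikawa 7.91% of the T-47D distal-distal loops were found (7.33 to 8.52%; all loops 9.93%, promoter loops 10.4%), and 4.69% of those of LNCaP (4.51 to 4.87%; all loops 6.41%, promoter loops 7.30%). The order held in each span class with 1 exception, T-47D loops of 200 kb or more found in Ishikawa, at 2.99% of distal-distal loops (2.30 to 3.87%) and 2.16% of promoter loops (1.88 to 2.48%). Thinning all lists to the T-47D total gave 6.46, 3.83 and 3.36% for these 3 comparisons, and an overlap of 50% of both anchors gave 4.18, 0.225 and 0.378%. The distal-distal share was under the promoter share in each of these alternatives, although in the thinned T-47D and Ishikawa lists, with 3.83 and 4.33%, the intervals overlapped.
The gap between the classes lay mostly in the anchors. Both anchors of 21.5% of T-47D distal-distal loops overlapped LNCaP anchors, against 60.9% for promoter loops. Promoter anchors were also wider, and the part of width in this overlap was not tested. Given both anchors, 66.0% (63.8 to 68.2%) of distal-distal pairs were also joined in LNCaP, against 73.4% of promoter pairs. In the Ishikawa list the order turned: given both anchors, distal-distal pairs were joined in 36.6% (T-47D, 34.3 to 38.9%) and 28.0% (LNCaP, 27.1 to 29.0%) of cases, against 25.1 and 20.9% of promoter pairs, and the distal-distal value was the higher one in each of the 3 span classes.

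**Figure D3:**
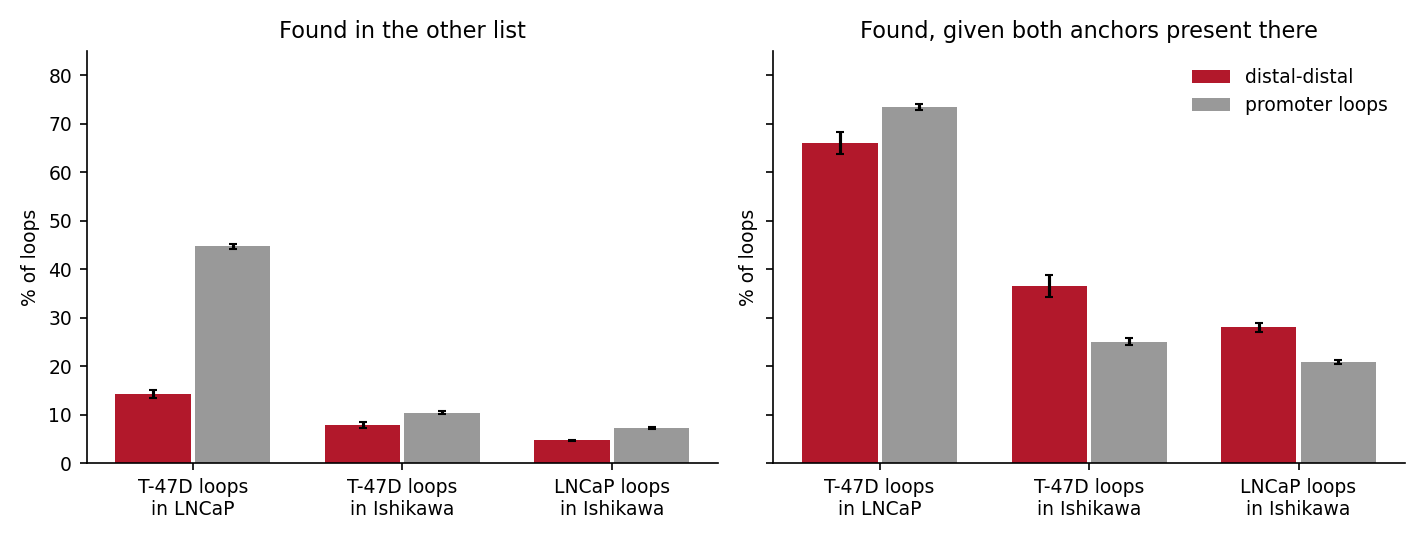
Bars show the percent of distal-distal and of promoter loops of 1 list that were found in another, over all loops on the left and over loops with both anchors present in the other list on the right, with 95% Wilson intervals. On the left 14.2% stands against 44.7% for T-47D in LNCaP, and on the right distal-distal pairs are above promoter pairs in both comparisons with Ishikawa.

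Of the T-47D distal-distal loops 150, or 1.87% (1.60 to 2.19%), were found in both other lists, against 5.13% of all T-47D loops and 5.90% of its promoter loops. In 82 cases, with a median span of 29.0 kb, the loop was distal-distal in all 3 lists. The 5 named here ranked highest by the lowest percentile of their read pairs over the 3 lists. The leading one joined an ELF3 anchor, chr1:201986299-201988580, to chr1:202014730-202017125 with 17 (Ishikawa), 22 (T-47D) and 35 (LNCaP) read pairs, and ELF3 encodes an epithelial transcription factor. The others lay in ATXN7L1 (9, 23 and 23 read pairs in the same order), in an intergenic region 116 kb from GRHL2, a grainyhead factor of epithelia (14, 13 and 44), in PTPRJ, a receptor phosphatase gene (8, 23 and 68), and in MYOF, a membrane repair gene (23, 31 and 11).

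Within the Ishikawa list, 4 runs of rows, each sorted on its own, could be told apart, and no source ties these parts to a sample. Distal-distal loops recurred less often across them: 31.4% (31.1 to 31.7%) were present in 2 or more parts, against 33.8% of all Ishikawa loops and 37.3% of promoter loops. Recurrence was 42.7% below 50 kb and 7.19% at 200 kb or more. Since each part lists a pair only from 3 read pairs on, a loop in 2 or more parts has at least 6, and recurrence is tied to read pairs by construction. The distal-distal share of the 4 parts ranged from 48.3 to 59.4%.

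Distal-distal loops were also counted near genes that mark the tissues of the 3 lines. Loops were counted when both anchor centres lay within 250 kb of the start site, and read pairs are given per 100000 distal-distal read pairs of each list, on which scale the minimum of 3 read pairs is 3.95 for T-47D, 0.530 for Ishikawa and 0.543 for LNCaP. T-47D has the smallest distal-distal share of read pairs, so it stands higher on this scale than it would against all loop read pairs. Which line is highest for XBP1, CCND1, KLK3 and FKBP5, described below, depends on this choice. On the scale used, 4 of 5 endometrial or Mullerian genes had their highest value in Ishikawa, and 4 of 5 luminal breast genes in T-47D. Over all 19412 protein-coding genes with such a loop in any list, the highest value was in Ishikawa for 59.0%, in T-47D for 17.4% and in LNCaP for 23.5%, and the median protein-coding gene had 11 loops in Ishikawa, 3 in LNCaP and 0 in T-47D. SOX17, MSX1, FOXA2 and PAX8 thus had fewer loops in Ishikawa than the median gene, while the prostate luminal genes described here were divided between LNCaP and T-47D.
EMX2, a homeobox gene of the developing uterus, had 32 loops and 38.0 per 100000 in Ishikawa, 1 loop in LNCaP and none in T-47D. It lies in the segment of chromosome 10 in which Ishikawa loops of all classes were dense, at 137 distal-distal loops per Mb over such segments against 24.8 elsewhere. SOX17, a transcription factor gene of the uterine epithelium, had 9 loops in Ishikawa and none in the other lists, and the same held for MSX1 with 5 and FOXA2 with 2. The FOXA2 value, 1.06 per 100000, was below the T-47D minimum and could not have been detected there. The minimum holds for each loop, and the strongest Ishikawa loops had 7 read pairs at SOX17 and 11 at MSX1. On this scale each was also below the T-47D minimum, so a loop of that strength could not have been listed there. The exception was PAX8, with 5 loops and 3.35 per 100000 in Ishikawa and 3 loops and 7.06 in LNCaP.
TRPS1, which encodes a GATA-type repressor of luminal breast cells, had 191 loops and 4310 per 100000 in T-47D, 20 loops and 16.2 in Ishikawa and 3 loops and 1.81 in LNCaP. PGR, the progesterone receptor gene, had 48 loops and 1923 per 100000 in T-47D, against 11 loops and 8.47 in Ishikawa and 6 loops and 3.98 in LNCaP. ESR1, which encodes the estrogen receptor, had 237 per 100000 in T-47D and 54.9 in Ishikawa, and no loop in LNCaP. XBP1, a stress-response factor gene, had 85.6, 57.4 and 15.4 per 100000 in T-47D, Ishikawa and LNCaP. GATA3 went against its group, with 22 loops (20.7 per 100000) in Ishikawa and 1 loop, at the minimum of 3 read pairs, in T-47D.
SLC45A3, a prostate transporter gene, had 42 loops and 204 per 100000 in LNCaP, against 5 loops and 23.7 in T-47D and 3 loops and 1.77 in Ishikawa. TMPRSS2, an androgen-regulated protease gene, had 22.5 per 100000 in LNCaP and 9.22 in T-47D, where it rested on 7 read pairs. KLK3, the gene of prostate-specific antigen, had 1 loop of 5 read pairs in LNCaP and its highest value, 5.27 per 100000 from 4 read pairs, in T-47D, and FKBP5 was highest in T-47D at 94.8 per 100000 against 77.9 in LNCaP.
Of the genes that several lines use, FOXA1 had 261 per 100000 in LNCaP, 132 in T-47D and 6.53 in Ishikawa, and its strongest loop in LNCaP had 913 read pairs. MYC had 79 loops in LNCaP (215 per 100000), 18 in Ishikawa (24.4) and 4 in T-47D (21.1). CCND1, the cyclin D1 gene, had 93.5 in T-47D, 60.4 in Ishikawa and 1 loop in LNCaP. TGFA, which encodes a growth factor, had 26 distal-distal loops in Ishikawa, 1 in T-47D and none in LNCaP, and PEG10, an imprinted gene, had 22, none and 2. The strongest PEG10 loop of Ishikawa, at 13 read pairs, was below the T-47D minimum on the scale used. GREB1, an estrogen target gene, had 109 per 100000 in T-47D, 27.0 in LNCaP and 13.6 in Ishikawa.

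Motif letters set the distal anchors of the 3 lines apart. Matches were counted on both strands of all anchors of distal-distal loops and set against the whole genome, without unknown bases, and each pattern was counted separately, so that a stretch of bases could count for more than 1. Estrogen receptor letters (GGTCANNNTGACC) were at 3.52 matches per Mb in T-47D distal anchors (95% Poisson interval 2.65 to 4.59, 55 matches), which is 4.59 times the genome's 0.767, and at 1.38 per Mb (1.00 to 1.85) in T-47D promoter anchors. Distal anchors of Ishikawa were at 1.22 times the genome and those of LNCaP at 0.939 times. Of T-47D distal anchors 0.957% held a match, against 0.184% of genome tiles of the median width of these anchors, 2421 bp. T-47D anchors with 1 distal partner had 2.33 matches per Mb (1.33 to 3.79), those with 2 to 4 partners 4.05 (2.59 to 6.02) and those with 5 or more 5.31 (2.97 to 8.77), and these intervals overlap.
Androgen receptor letters (GNACANNNTGTNC) were at 21.2 matches per Mb in LNCaP distal anchors (20.2 to 22.2), 1.64 times the genome, at 1.39 times in T-47D and at 1.06 times in Ishikawa. LNCaP promoter anchors were at 15.5 per Mb (14.6 to 16.5). Of LNCaP distal anchors 7.17% held a match, against 3.79% of genome tiles of their median width, 3035 bp. Forkhead letters (TGTTTAC) were at 224 per Mb in LNCaP distal anchors (221 to 227), 1.37 times the genome, at 1.14 times in T-47D and 1.00 times in Ishikawa. HOX13 letters (CCAATAAA), read by homeobox factors of the prostate, were at 1.16 times the genome in LNCaP distal anchors, 0.794 times in T-47D and 0.987 times in Ishikawa.
In LNCaP anchors found in that list only, forkhead letters were at 234 per Mb (229 to 238), against 211 (207 to 216) in anchors overlapping those of another list. Base composition moved with this, at 39.7 and 42.1% G and C, and its part in these rates was not tested. Over all distal anchors G and C made up 40.7% in LNCaP, 41.3% in Ishikawa and 45.3% in T-47D, against 40.9% of the genome.
GATA letters (AGATAAG) were at 1.09 times the genome in LNCaP and 0.847 times in T-47D, AP-1 letters (TGANTCA) at 1.03 to 1.08 times in all 3 lines, and TEAD letters (ACATTCC) at 1.19 times in T-47D and 1.01 to 1.02 times in the other two. The wide Ishikawa anchors were at 0.985 to 1.06 times the genome for every pattern other than the estrogen receptor one.

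**Figure D4:**
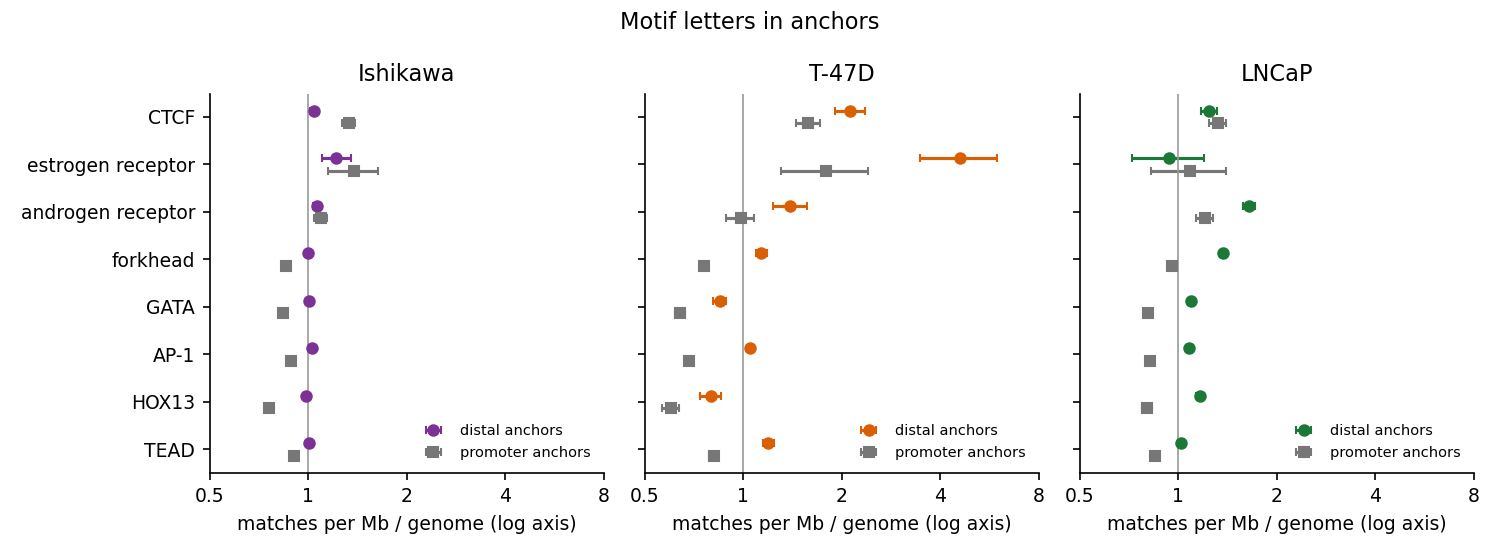
Points show matches of 8 motif patterns per Mb of distal and of promoter anchors of each list, divided by the matches per Mb of the genome (log axis), with 95% Poisson intervals. The estrogen receptor pattern stands at 4.59 in T-47D distal anchors, the androgen receptor and forkhead patterns at 1.64 and 1.37 in LNCaP, and the Ishikawa distal anchors lie near 1.

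CTCF-type letters were most frequent in T-47D distal anchors, at 23.1 per Mb or 2.12 times the genome, against 1.24 times in LNCaP and 1.04 times in Ishikawa. Few loops carried them at both ends: 0.626% of Ishikawa, 0.649% of T-47D and 0.490% of LNCaP distal-distal loops, compared with 1.30, 0.564 and 0.665% of promoter loops. Among distal-distal loops with exactly 1 match in each anchor, the matches were convergent in 28.7% of 516 loops in Ishikawa (24.9 to 32.7%), 27.5% of 40 in T-47D (16.1 to 42.8%) and 31.4% of 226 in LNCaP (25.7 to 37.7%). Divergent pairs made up 23.1% (19.6 to 26.9%), 17.5% (8.75 to 31.95%) and 20.8% (16.0 to 26.6%), and the rest pointed the same way. Matches of random direction would give convergent and divergent pairs equally often. In each list the convergent and divergent intervals overlapped, and an excess of convergent pairs was not tested. Promoter loops had convergent shares of 28.6, 34.0 and 31.0%. With the stricter pattern CCANNAGGNGGCA, whose matches are all among those of the wider one, the convergent share was 37.3, 33.3 and 32.4%, the Ishikawa value resting on 51 loops and the T-47D value on 12.

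The distal-distal share was lowest on chromosome 19, at 32.8% in Ishikawa, 7.95% in LNCaP and 4.24% in T-47D, and next lowest on chromosome 17 in each list. Chromosome 13 had 70.2% in Ishikawa and 53.2% in LNCaP, and chromosome 8 had 32.1% in T-47D. The X chromosome of Ishikawa held 70 distal-distal loops, or 0.451 per Mb, against 8.37 per Mb in LNCaP and 0.657 in T-47D, and it held few loops of any class, 95 in all.
Ishikawa distal-distal loops were concentrated in 3 segments, the end of the long arm of chromosome 3, chromosome 10 from 74 Mb on and chromosome 12 up to 73 Mb. These make up 5.38% of the genome and held 23.9% of the Ishikawa distal-distal loops, at 137 per Mb against 24.8 elsewhere, compared with 9.45% in T-47D and 8.82% in LNCaP. The distal-distal share of loops was 58.8% inside the segments and 58.3% outside, so the density there was common to both classes. NAALADL2, the named Ishikawa anchors of most distal partners and the Ishikawa groups around DLG5 and around SLC38A1 lie in these segments. The strong Ishikawa loop at SMIM41 and the Ishikawa loops whose sequences are shown lie there too.

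**Figure D5:**
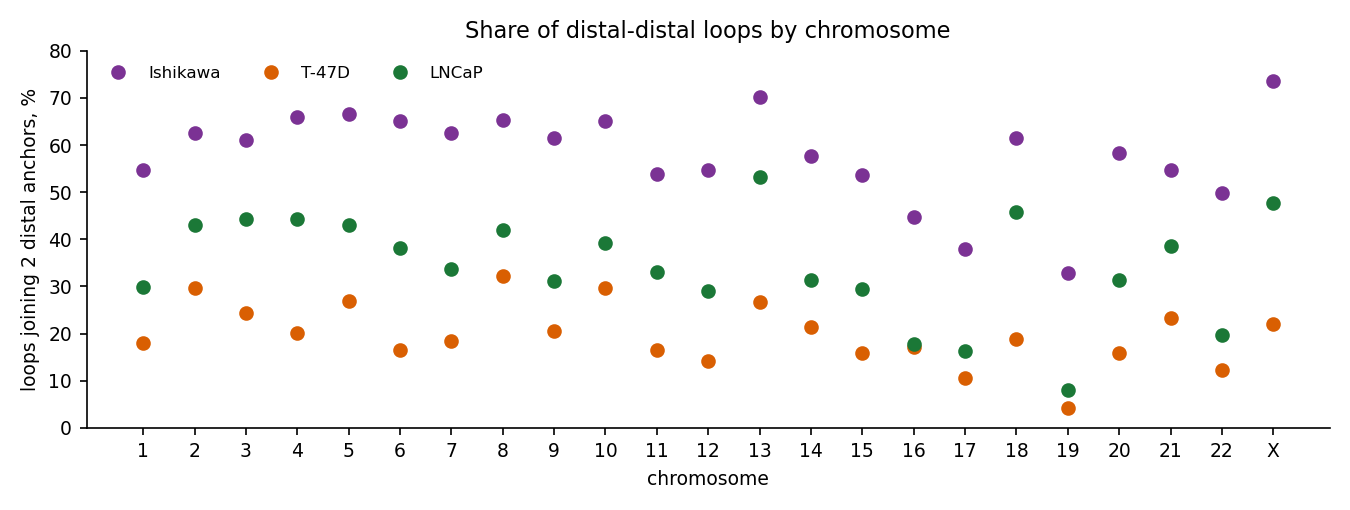
Points show the percent of the loops of each chromosome that join 2 distal anchors, for each list. All 3 lists have their lowest point on chromosome 19, at 32.8, 7.95 and 4.24%.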

How the data were processed

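H3K27ac HiChIP loops of Ishikawa, T-47D and LNCaP cells were used as deposited, 1 list per line. Per the study's methods, the authors aligned reads to hg19 with HiC-Pro, called loops with hichipper, removed weak or non-significant loops and combined DMSO and E2 in Ishikawa. Versions are not given in the sources used here. The deposited values are counts of read pairs per loop, not scaled for depth.

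Rows of the same anchor pair were summed in Ishikawa, and rows of an anchor with itself or between chromosomes were left out. Start sites and genes came from GENCODE v44lift37 (GRCh37), with 20176 protein-coding and 18702 lncRNA genes. Members, lists, motifs and the dense segments were chosen with earlier results of these data known. Loops, anchors and groups were named by rank in read pairs, distal partners and number of anchors, and genes from a list of 22, of which some are not reported here. Shares have 95% Wilson intervals, motif rates exact Poisson intervals and median spans order-statistic intervals. With 1 list per line no test was run. Alternatives were another start-site window, minimum, span range, overlap and motif, thinning to the T-47D total, and leaving out dense segments or the largest groups. After thinning, loops under 3 read pairs were dropped, so the thinned lists ended below that total. Scripts, tested on simulated data, used Python 3.11.15, pandas 2.3.3, scipy 1.17.1, networkx 3.6.1 and pysam 0.24.0.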

Additional observations from a re-analysis of the deposited data

Results flagged for a closer look

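The T-47D list held 70 pairs of anchors on different chromosomes, which no comparison above used, and 8 of them (11.4%, 95% Wilson interval 5.91 to 20.96%) joined 2 distal anchors, with at most 12 read pairs. They were singled out as a signal outside the loops described, and no control sample gives a background for them.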

How the results depend on the processing

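Of 60 values recomputed under alternatives, 14 moved by less than their counting interval, 45 moved further and 1 changed direction, the T-47D ratio of mean read pairs, at 0.974 without the 3 groups of most joined anchors. Values follow in the order Ishikawa, T-47D and LNCaP where 3 are given. The distal-distal percent of loops was 55.0, 17.5 and 32.2% with a 2 kb start-site window and 55.3, 20.1 and 32.7% with 5 or more read pairs. It was 54.2% in Ishikawa and 31.1% in LNCaP after thinning, 54.2% over Ishikawa loops in 2 or more parts and 33.7% in LNCaP without the dense segments. The difference in median span was -7.44, -7.17 and -16.4 kb with 5 or more read pairs and -9.94, -9.48 and -13.8 kb over spans of 20 kb to 1 Mb. The ratio of mean read pairs was 0.838, 1.11 and 0.835 with 5 or more read pairs, 0.813 in Ishikawa with the 2 kb window and 0.738 in LNCaP without the groups, and with the share of loops of 10 or more read pairs in place of the mean it was 0.655 in Ishikawa. The share of linked anchors in groups of 10 or more was 0% in Ishikawa and 19.7% in LNCaP after thinning. This alternative, that without the groups and that with the share of strong loops were chosen after seeing the data. Loops found in another list, in the order T-47D in LNCaP, T-47D in Ishikawa and LNCaP in Ishikawa, were 4.18, 0.225 and 0.378% with 50% overlap and 6.46, 3.83 and 3.36% after thinning, and with 5 or more read pairs the last 2 were 6.50 and 3.68%. Loops with both anchors joined to the same promoter anchor were 17.7, 63.3 and 66.3% with 5 or more read pairs, and 12.1% in Ishikawa and 46.6% in LNCaP after thinning. In Ishikawa the convergent share was 22.8% with 5 or more read pairs and 37.3% with the stricter motif. Ishikawa loops in 2 or more parts were 29.8% without the dense segments, and 80.9% with 5 or more read pairs, a rise fixed by construction, since a loop in 2 parts has at least 6. Loops inside a single gene were 38.1, 29.5 and 37.3% with 5 or more read pairs, and 33.2% in Ishikawa without the dense segments. The cause of the other shifts was not tested. No paired analysis was possible because each list merges its samples and no column carries a replicate. Depth limits T-47D most, where 3 read pairs are 3.95 per 100000, and leaving out single samples could not be run.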
